A study of Mus musculus with 14 samples.

Results

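The genes described here make, break down and read out cyclic AMP (cAMP): the adenylyl cyclases (Adcy), the cyclic nucleotide phosphodiesterases (Pde) and the catalytic and regulatory subunits of protein kinase A (Prka). They are the genes whose symbols match these families, a rule that uses no measured value, and number 38 of the 23412 genes in the count table: 10 cyclases, 22 phosphodiesterases and 6 kinase subunits. Their RNA and their ribosome footprints, the short mRNA pieces that a ribosome shields from nuclease, were compared between Fmr1 knockout and control mice. Both groups carried a floxed Rpl22 gene in 2 copies and a Cre transgene driven by CamK (source CAMKIIa-Ribotag mouse, tissue cortex), so the controls were Rpl22flox/flox;CamKCre+ and the knockout mice were Fmr1X-Y; Rpl22flox/flox;CamKCre+. RNA-seq was made from 4 controls (mice 1, 3, 6 and 8) and 4 knockout mice (2, 4, 5 and 7), and footprints from 3 controls (mice 1, 3 and 9) and 3 knockout mice (2, 4 and 10). The labels give no age and no agent, and the Cre and floxed Rpl22 limit both groups alike as models of the wild-type cortex. RNA and footprints were taken from whole lysates, so fewer cells of a type and less RNA per cell cannot be told apart.

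Receptors coupled to stimulatory G proteins switch on the membrane cyclases, which turn ATP into cAMP, and cAMP frees the catalytic subunits of protein kinase A from the regulatory ones. Phosphodiesterases end the signal by hydrolysing cAMP, cGMP or both. The isoforms differ in what controls them: calcium with calmodulin switches on Adcy1, Adcy8 and the Pde1 enzymes, calcium inhibits Adcy5 and Adcy6, and cGMP switches on Pde2a. FMRP, the RNA-binding protein made from Fmr1, has long been linked to cAMP levels, which were reported as low in fragile X cells, and Pde2a mRNA has been reported among its targets.

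Total counts were 8847547 to 11371851 per RNA library and 4124065 to 6033030 per footprint library, and levels are given as CPM, counts scaled to a common library size. Fmr1 RNA was at 71.3 to 89.9 CPM in control mice and 18.1 to 23.4 CPM in knockout mice. Its footprints were at 111 to 115 CPM and 5.82 to 8.54 CPM, so no library went against its label. The RNA libraries of knockout mice 2, 4 and 7 stood close together: the chi-square statistic of their pairwise counts, divided by its degrees of freedom, was 1.18 to 1.32, against 5.64 to 6.02 between each of them and knockout mouse 5. The labels number them as separate mice, but libraries this close may not be independent, so n = 4 and the SD of knockout RNA may overstate how many animals were sampled. Control RNA libraries were 1.99 to 11.8 apart by the same measure, with mice 1 and 3 the closest pair and mouse 8 farthest from them, and pairs between genotypes were 5.66 to 9.75 apart. The measure was 1.15 to 1.42 for footprint libraries of 1 genotype, about as close as RNA of knockout mice 2, 4 and 7. The same caution therefore holds for n = 3 in footprints. Footprints of the 12 immediate early genes, which mark recent neuronal activity, were called higher in knockout mice for 12 of 12, beside 11.9% of all genes (690 to 739 CPM summed in controls, 2592 to 2651 CPM in knockout mice). In RNA 12 of 12 were called higher as well, beside 3.53% of all genes, with sums that overlapped (280 to 578 CPM, 525 to 1208 CPM). Hypothalamus markers were called lower in footprints for 6 of 6 tested, beside 13.6% of all genes (114 to 124 CPM against 44.4 to 50.9 CPM). What part either has in the values below was not tested.

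Of the 38 genes, 33 had enough counts to be tested. The other 5 were Adcy10, the soluble cyclase, Pde4c, and the photoreceptor enzymes Pde6a, Pde6b and Pde6c, which had at most 17 counts in any library. A gene is called changed here when the adjusted p of edgeR's quasi-likelihood test is under 0.05. In RNA, 5 of 33 were called, 4 higher and 1 lower in knockout mice, or 15.2% where 7.41% of all genes tested were called (3.53% higher, 3.88% lower). In footprints, 12 of 33 were called, 8 higher and 4 lower, or 36.4% against 25.5% of all genes (11.9% higher, 13.6% lower). On plain library sizes 12 were also called in footprints, but 10 higher and 2 lower, so the share that was higher moved from 66.7% to 83.3%, as it did over all called genes, from 46.7% to 66.3%. In footprints relative to RNA, tested as the interaction of genotype and assay and written TE below, 4 of 33 were called, 3 higher and 1 lower, or 12.1% against 7.81% of all genes (3.4% higher, 4.41% lower). On plain library sizes 4 of 4 TE calls were higher, while the share over all called genes moved from 43.5% to 67.6%.

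**Figure D1:**
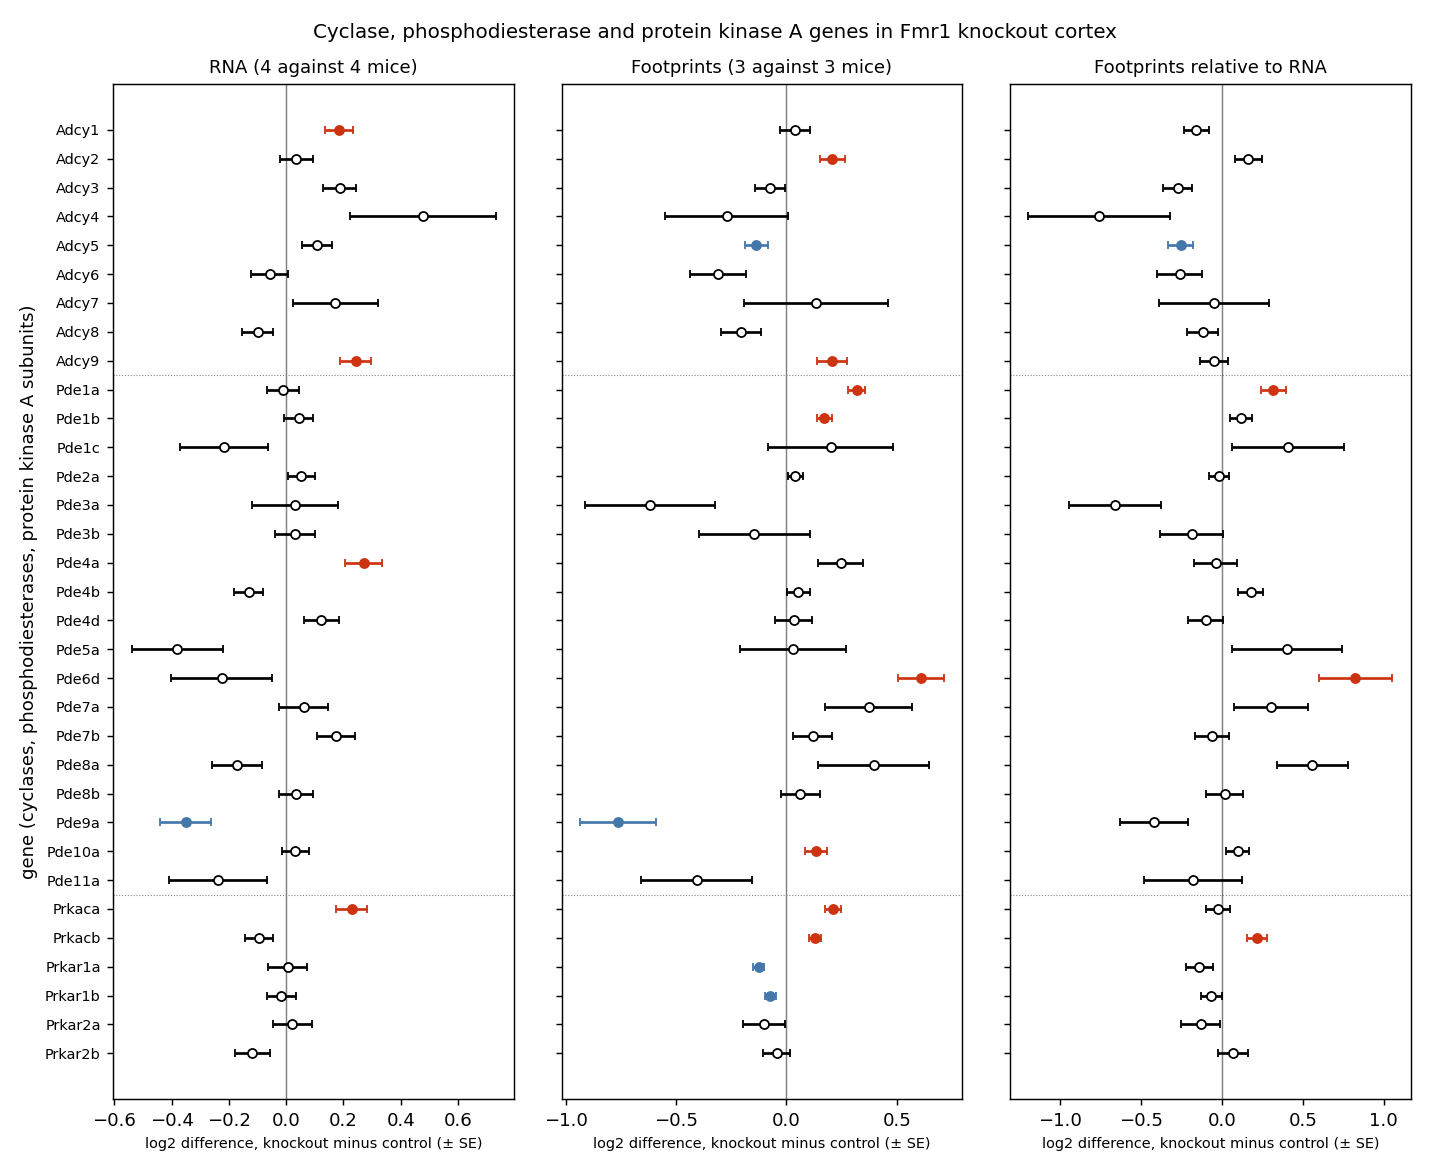
Log2 difference between knockout and control mice (± SE) for the 33 tested genes in RNA, in footprints and in footprints relative to RNA, with cyclases above, phosphodiesterases in the middle and kinase subunits below. Filled points passed an adjusted p of 0.05 (red higher, blue lower in knockout mice). Calls in RNA number 5, and those in footprints 12, with Pde9a the lowest and Pde6d the highest of the called footprint values.

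Among the cyclases the differences lay mostly upward in RNA and to both sides in footprints. Adcy1, a calcium-stimulated cyclase of the cortex and hippocampus, and Adcy9, a widely expressed cyclase that forskolin activates poorly, rose in RNA. Adcy2 and Adcy9 rose in footprints, and Adcy5, the main cyclase of the striatum, fell there. Of the 9 cyclases tested, 7 lay above 0 in RNA, with a median log2 difference of 0.17 beside -0.0012 for all genes, and 2 of 9 were called (22.2% beside 7.41% of all genes). In footprints 4 lay above 0 and the median was -0.074 beside 0.0054 for all genes, and 3 of 9 were called (33.3% beside 25.5%). In TE 8 of 9 lay below 0, where 51.8% of all genes did, with a median of -0.16 and 1 of 9 called (11.1% beside 7.81%).

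Adcy1 RNA was at 517, 510, 499.5 and 544 CPM in control mice 1, 3, 6 and 8. It was at 591, 587, 585 and 589 CPM in knockout mice 2, 4, 5 and 7. The knockout mice lay close to each other and above each control, and the rise was 13.6% (log2 0.18 ± 0.049 SE, edgeR adjusted p = 0.0354). With the prefix of the library titles as a block the call was lost (adjusted p = 0.0536). Adcy1 footprints did not separate the groups: 77.9, 73.9 and 73.2 CPM in control mice 1, 3 and 9, and 72.6, 77.7 and 79.6 CPM in knockout mice 2, 4 and 10 (log2 0.037 ± 0.068, edgeR adjusted p = 0.746). The TE test of the gap between the assays gave log2 -0.16 ± 0.076 (edgeR adjusted p = 0.217), so the assays were not shown to differ.

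Adcy9 was the cyclase called in both assays. Its RNA was at 127 to 130 CPM in the 4 controls and at 147, 156, 163 and 144 CPM in knockout mice 2, 4, 5 and 7 (log2 0.24 ± 0.054, edgeR adjusted p = 0.0164). Its footprints were at 68.2, 69.7 and 71.4 CPM in controls and at 74.5, 81.7 and 85.0 CPM in knockout mice (log2 0.21 ± 0.069, edgeR adjusted p = 0.018). The groups did not overlap in either assay, and the TE difference was -0.045 ± 0.086. The footprint call was lost with DESeq2 (adjusted p = 0.105).

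Adcy2 rose and Adcy5 fell in footprints, neither with a call in RNA. Adcy2, which Gβγ stimulates together with Gαs, had footprints at 105, 106 and 99.6 CPM in controls and 125, 117 and 116 CPM in knockout mice, without overlap (log2 0.21 ± 0.057, edgeR adjusted p = 0.00314). Its RNA overlapped, at 269 to 303 CPM against 280 to 309 CPM. Adcy5 footprints were at 149.6, 146 and 148 CPM in controls and 124, 137 and 141 CPM in knockout mice, again without overlap (log2 -0.14 ± 0.051, edgeR adjusted p = 0.0382). Its RNA was at 432 to 466 CPM in controls and 467 to 510 CPM in knockout mice, higher but short of a call (log2 0.11 ± 0.052, edgeR adjusted p = 0.224). Adcy5 was the 1 cyclase called in TE, at log2 -0.25 ± 0.076 (edgeR adjusted p = 0.042). In mice measured in both assays, Adcy5 gave 0.339 and 0.337 footprint CPM per RNA CPM in control mice 1 and 3, against 0.255 and 0.292 in knockout mice 2 and 4. The TE call was lost with the title prefix as a block (adjusted p = 0.0639) and with no filter on low counts (0.0576). Both Adcy5 calls were lost on plain library sizes, and the footprint call also with DESeq2 (adjusted p = 0.156).

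Of the remaining cyclases, Adcy3, the cyclase of neuronal cilia and olfactory neurons, had RNA at 83.0 to 92.7 CPM in controls and 95.3 to 105 CPM in knockout mice, with no overlap (log2 0.19 ± 0.058, edgeR adjusted p = 0.0628), while its footprints overlapped. The gene overlaps Cenpo in RefSeq, as Adcy7 overlaps Brd7, and reads of such pairs may not be told apart where the counting strand is not given. In the exon columns of the same RNA libraries, an alternative count of each gene, Adcy3 passed the test. Calcium-stimulated Adcy8 and calcium-inhibited Adcy6 had lower footprint values without a call: Adcy8 42.5 to 47.0 CPM against 34.6 to 40.6 CPM (log2 -0.21 ± 0.092), and Adcy6 20.6 to 28.1 CPM against 18.3 to 20.4 CPM (log2 -0.31 ± 0.13). Adcy4 and Adcy7 stayed at 2.14 to 8.36 CPM in RNA and at 2.30 to 6.27 CPM in footprints, where the groups overlapped and the errors were 0.15 to 0.33 on the log2 scale in those assays.

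The promoters of the 4 members called higher in RNA are shown here. That of Pde9a, the member called lower, is not, because the promoter source held no window for it. The 4 promoters are shown because cAMP acts back on transcription through CREB, whose site, the cAMP response element, is the 8-base TGACGTCA. Its 5-base core, TGACG, was searched on both strands. Each run is the 150 bases before a RefSeq start on GRCm38.p6, 5′ to 3′ on the gene's strand, with each core in capitals. A core on the opposite strand reads CGTCA. Where a gene has several starts, the window holding a core is shown.
Prkaca, chr8:83972828-83972977, plus strand: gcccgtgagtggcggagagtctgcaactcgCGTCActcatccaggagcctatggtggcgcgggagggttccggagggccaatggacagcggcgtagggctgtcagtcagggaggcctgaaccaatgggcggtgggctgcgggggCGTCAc
Adcy9, chr16:4420499-4420648, minus strand: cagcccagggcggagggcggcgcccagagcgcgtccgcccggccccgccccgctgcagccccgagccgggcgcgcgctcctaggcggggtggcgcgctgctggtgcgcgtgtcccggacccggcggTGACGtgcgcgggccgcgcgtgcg
Pde4a, chr9:21183951-21184100, plus strand: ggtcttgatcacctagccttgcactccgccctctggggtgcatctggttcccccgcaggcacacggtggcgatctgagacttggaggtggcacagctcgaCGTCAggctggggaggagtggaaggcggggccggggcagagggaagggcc
Adcy1, chr11:7063283-7063432, plus strand: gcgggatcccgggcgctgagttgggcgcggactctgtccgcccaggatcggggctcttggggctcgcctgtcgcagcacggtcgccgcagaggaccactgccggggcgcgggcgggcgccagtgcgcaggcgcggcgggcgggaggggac
The core begins 120 and 6 bases before the Prkaca start, 24 before that of Adcy9 and 50 before this start of Pde4a, and the Adcy1 window holds none. Among the 30 members with a promoter in the RefSeq table, 9 (30%) held a core in at least 1 window, beside 15.0% of all genes. Of these 9, Prkacb, Pde4b, Prkar1b, Pde8a, Adcy7 and Prkar1a were not called in RNA. Members have more starts per gene, and counted by window the shares were 14.9% of 67 and 13.3% of 32851. The full 8 bases, which contain the core on each strand, stood in 1 member, Prkar1a, 49 bases before a start (1.58% of all genes). These matches describe letters in a window and do not show binding.

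**Figure D2:**
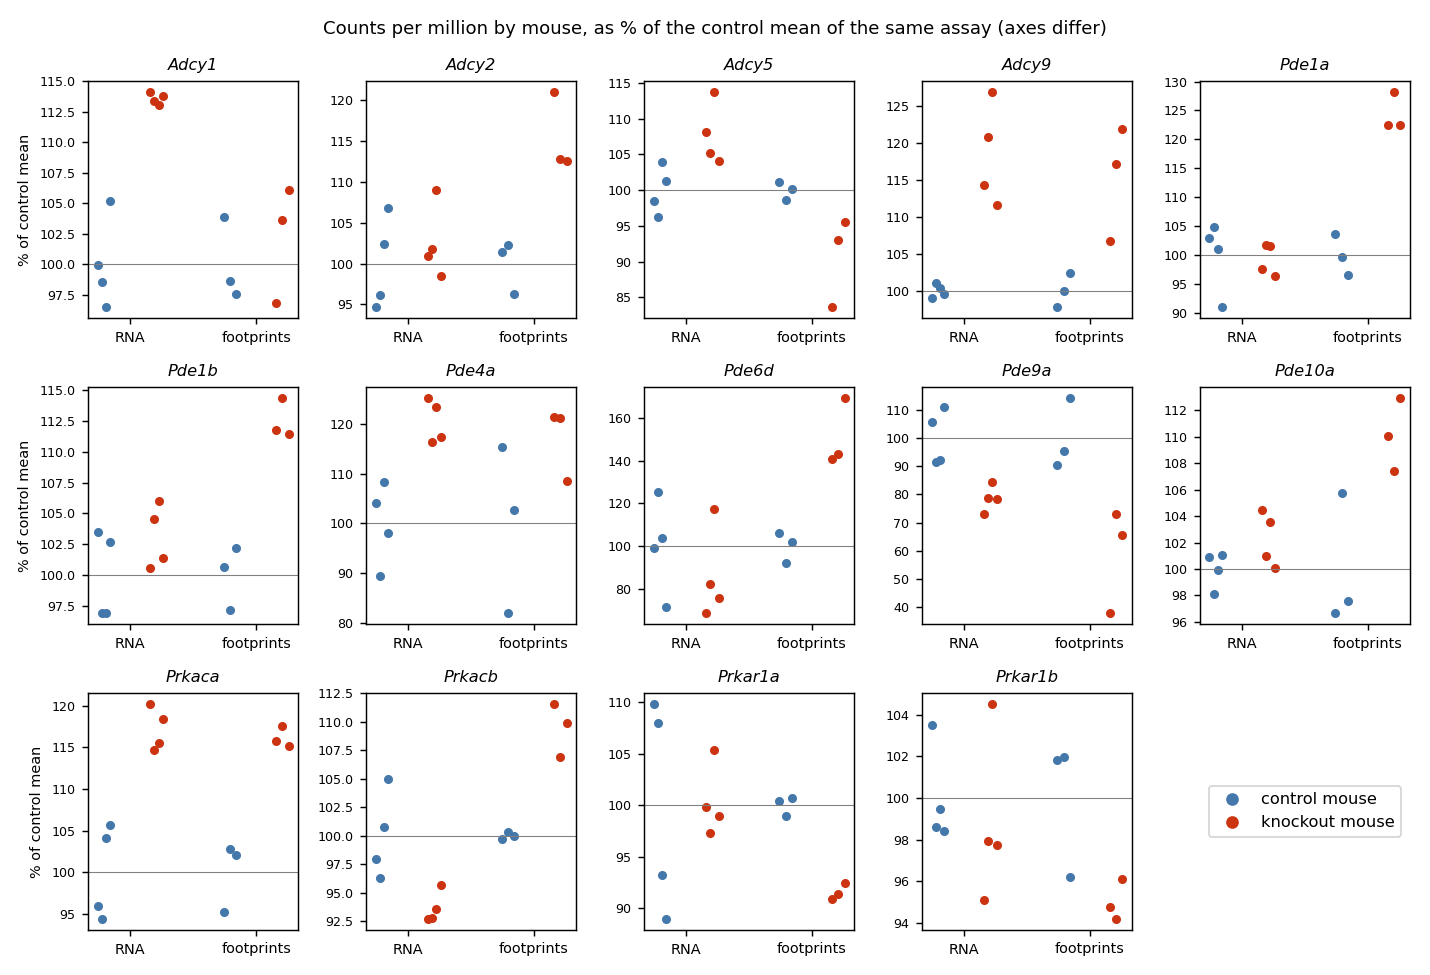
CPM of the 14 genes called in at least 1 test, for each mouse, as % of the control mean of the same assay (grey line at 100%, vertical axes differ between panels). The genotypes do not overlap for the 5 genes called in RNA, nor in footprints for the 12 genes called there. These genes were picked by tests on the same values, so their separation is not a separate result. In RNA they also do not overlap for Adcy5 (knockout mice above) and Prkacb (below), which were not called.

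Among the phosphodiesterases 4 rose and 1 fell in footprints, and the pair with the lowest adjusted p of the enzymes was Pde1a and Pde1b, which calcium and calmodulin activate. In footprints 14 of 18 tested lay above 0, with a median log2 difference of 0.090 beside 0.0054 for all genes, and 5 were called (27.8% beside 25.5% of all genes): Pde1a, Pde1b, Pde10a and Pde6d higher and Pde9a lower. In RNA 10 of 18 lay above 0, and 2 were called (11.1% beside 7.41%), Pde4a higher and Pde9a lower. In TE 10 of 18 lay above 0, and Pde1a and Pde6d were called higher (11.1% called beside 7.81%).

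Pde1a, which prefers cGMP but also hydrolyses cAMP, had the lowest footprint adjusted p of the members. Footprints of Pde1a were at 232, 224 and 216 CPM in control mice 1, 3 and 9 and at 274, 287 and 274 CPM in knockout mice 2, 4 and 10, a rise of 24.7% (log2 0.32 ± 0.039, edgeR adjusted p = 6.0e-11). Its RNA overlapped, at 281 to 324 CPM in controls and 297 to 314 CPM in knockout mice (log2 -0.0094 ± 0.056). TE was higher by log2 0.32 ± 0.076 (edgeR adjusted p = 0.0121). In footprint CPM per RNA CPM, control mice 1 and 3 were at 0.730 and 0.690 and knockout mice 2 and 4 at 0.911 and 0.914.

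Pde1b, the form of Pde1 that is abundant in striatal neurons, followed with footprints at 341, 330 and 347 CPM in controls and 379, 388 and 378 CPM in knockout mice (log2 0.17 ± 0.033, edgeR adjusted p = 2.31e-05). Its RNA overlapped (269 to 287 CPM, 279 to 294 CPM), and its TE difference of 0.12 ± 0.065 was not called (edgeR adjusted p = 0.293). Pde1c had few counts, 3.01 to 5.93 CPM in footprints, and overlapped in both assays.

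Pde10a, the striatal enzyme that hydrolyses cAMP and cGMP, had footprints at 135, 148 and 137 CPM in controls and 154, 151 and 158 CPM in knockout mice (log2 0.14 ± 0.050, edgeR adjusted p = 0.0337). The highest control and the lowest knockout mouse nearly met, and the call was lost with DESeq2 (adjusted p = 0.15). RNA of Pde10a overlapped at 267 to 275 CPM against 272 to 284 CPM. In footprints, striatum markers moved with Pde10a and Pde1b and against Adcy5. There, 6 of 11 were called higher and 1 lower (1346 to 1377 CPM summed in controls, 1496 to 1568 CPM in knockout mice), where 11.9% and 13.6% of all genes were. In RNA 1 of 11 was called higher (729 to 863 CPM, 857 to 898 CPM), where 3.53% of all genes were. Yet 11 of 11 lay above 0 in RNA (median log2 difference 0.16), as did Adcy5, Pde10a and Pde1b, where 49.8% of all genes did. The part of the striatum markers in these values was not tested.

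Pde9a, the cGMP-specific enzyme of high affinity, was the phosphodiesterase that fell in both assays. Its RNA was at 24.7, 21.3, 21.6 and 25.9 CPM in control mice 1, 3, 6 and 8 and at 17.1, 18.4, 19.7 and 18.3 CPM in knockout mice 2, 4, 5 and 7 (log2 -0.35 ± 0.090, edgeR adjusted p = 0.0297). Its footprints were at 14.2, 14.9 and 17.9 CPM in controls and 5.93, 11.4 and 10.3 CPM in knockout mice, and fell by 41.1% (log2 -0.76 ± 0.17, edgeR adjusted p = 0.000298). These rest on 25 to 101 footprint counts per library, with knockout mouse 2 the lowest. The TE difference of -0.42 ± 0.21 was not called (edgeR adjusted p = 0.237).

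Pde6d has a phosphodiesterase name but is not an enzyme: its product, also called PDEδ, carries prenylated proteins such as small GTPases to membranes. Footprints of Pde6d were at 28.1, 24.3 and 26.9 CPM in controls and 37.2, 37.9 and 44.8 CPM in knockout mice, a rise of 52.6% (log2 0.61 ± 0.10, edgeR adjusted p = 1.27e-06). Its RNA was at 10.8 to 19.0 CPM against 10.3 to 17.8 CPM and overlapped. In TE it rose by log2 0.82 ± 0.23 (edgeR adjusted p = 0.0281), a call lost in 9 of 19 alternatives, among them without mouse 1, 2, 3, 4, 6, 7, 9 or 10 (adjusted p up to 0.13). The gene overlaps Cops7b in RefSeq, and as the strand used in counting is not given in the sources used here, reads of the 2 genes may not be told apart.

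Among the cAMP-specific enzymes, Pde4a was called in RNA, and none was called in footprints or TE. In the exon columns Pde4a was lost (log2 0.18 ± 0.054, edgeR adjusted p = 0.0549) and Pde7b was called instead. Pde4a, a target of the inhibitor rolipram like the other Pde4 enzymes, had RNA at 75.9, 65.2, 79.0 and 71.5 CPM in controls and 91.4, 84.8, 89.9 and 85.6 CPM in knockout mice (log2 0.27 ± 0.066, edgeR adjusted p = 0.0239). Its footprints had the same direction and overlapped, at 28.0 to 39.4 CPM against 37.1 to 41.5 CPM (log2 0.24 ± 0.10, edgeR adjusted p = 0.0618). Pde4b went the other way in RNA, at 158 to 160 CPM in controls and 139 to 156 CPM in knockout mice, without overlap and without a call (log2 -0.13 ± 0.052, edgeR adjusted p = 0.137). Its footprints overlapped (130 to 135 CPM, 129 to 143 CPM). In the TE fit with mouse as a replicate block, which uses mice 1 to 4, Pde4b became the 5th member called. Pde4d footprints were at 45.0 to 51.5 CPM against 45.7 to 51.5 CPM, a difference of 0.033 ± 0.085. Pde7a, Pde7b, Pde8a and Pde8b had footprint differences of 0.37, 0.12, 0.39 and 0.062 on the log2 scale with errors of 0.087 to 0.25, none called.

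Pde2a, the cGMP-stimulated enzyme whose mRNA has been reported to bind FMRP, did not separate the genotypes. Its RNA was at 616, 603, 622 and 599 CPM in control mice and at 621, 623, 659 and 628 CPM in knockout mice (log2 0.053 ± 0.048, edgeR adjusted p = 0.553). Its footprints were at 294, 300.4 and 309 CPM against 312, 313 and 306 CPM (log2 0.040 ± 0.035, edgeR adjusted p = 0.449). TE differed by -0.019 ± 0.062 (edgeR adjusted p = 0.892). On plain library sizes Pde2a, like Pde4a, was called higher in footprints. Pde3a, Pde3b, Pde5a and Pde11a had footprints at 2.61 to 7.46 CPM and none was called. Pde3a footprints were lower in each knockout mouse, at 2.61 to 3.35 CPM against 4.48 to 4.92 CPM, with an error of 0.30 on a log2 difference of -0.62.

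In protein kinase A the catalytic subunits rose and the type I regulatory subunits fell in footprints, 4 of 6 genes called (66.7% beside 25.5% of all genes, with 11.9% higher and 13.6% lower). Prkaca, which encodes catalytic subunit α, had footprints at 229, 248 and 246 CPM in control mice 1, 3 and 9 and at 279, 283 and 278 CPM in knockout mice 2, 4 and 10 (log2 0.21 ± 0.038, edgeR adjusted p = 4.60e-06). Its RNA was at 224, 220, 243 and 247 CPM in control mice 1, 3, 6 and 8 and at 281, 267, 270 and 276 CPM in knockout mice (log2 0.23 ± 0.054, edgeR adjusted p = 0.0204). Neither assay overlapped, and TE differed by -0.022 ± 0.074. In the exon columns the RNA difference of Prkaca was 0.076 ± 0.060 (edgeR adjusted p = 0.475), so this RNA call depends on which columns are read.

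Prkacb, catalytic subunit β, differed between the assays. Its footprints were at 576, 580 and 577 CPM in controls and 644, 617 and 635 CPM in knockout mice (log2 0.13 ± 0.028, edgeR adjusted p = 0.000111). Its RNA lay on the other side, at 544 to 593 CPM against 523 to 540 CPM, without a call (log2 -0.094 ± 0.049, edgeR adjusted p = 0.272). The TE test of that gap was called at 0.22 ± 0.062 (edgeR adjusted p = 0.0334), and lost with the title prefix as a block (0.0605) and with no filter on low counts (0.0543). Control mice 1 and 3 gave 1.04 and 1.07 footprint CPM per RNA CPM, and knockout mice 2 and 4 gave 1.23 and 1.18.

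Prkar1a and Prkar1b encode the type I regulatory subunits, which hold the kinase inactive in the cytosol. Prkar1a footprints were at 1024, 1010 and 1027 CPM in controls and 928, 932 and 943 CPM in knockout mice (log2 -0.13 ± 0.024, edgeR adjusted p = 1.24e-05). Prkar1b footprints were at 930.4, 932 and 879 CPM against 866, 861 and 878 CPM, where control mouse 9 and knockout mouse 10 nearly met (log2 -0.073 ± 0.025, edgeR adjusted p = 0.023). RNA of both overlapped between genotypes, with differences of 0.0049 ± 0.069 and -0.017 ± 0.051. On plain library sizes the Prkar1a difference was -0.067 (edgeR adjusted p = 0.0249). The Prkar1b call was lost on plain library sizes (log2 -0.013, edgeR adjusted p = 0.746) and with DESeq2 (adjusted p = 0.0882). Both type I calls and that of Prkacb were lost when the footprints were fitted together with the RNA libraries, at adjusted p of 0.184, 0.299 and 0.0804. The type II subunits, which anchoring proteins place at synapses and along dendrites, overlapped in both assays: Prkar2a footprints at 37.0 to 42.6 CPM against 32.7 to 40.8 CPM, Prkar2b at 87.8 to 99.9 CPM against 87.6 to 93.8 CPM.

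The ratio of synthesis to breakdown genes was higher in knockout mice in RNA and lower in footprints. The 10 cyclases summed to 1610 ± 36.6 CPM of RNA in controls (SD, n = 4) and 1753 ± 36.2 CPM in knockout mice (SD, n = 4), 109% of control. The 21 phosphodiesterases other than Pde6d summed to 2104 ± 19.0 CPM and 2144 ± 37.9 CPM. Their ratio was 0.751, 0.757, 0.764 and 0.790 in control mice 1, 3, 6 and 8, and 0.816, 0.817, 0.821 and 0.816 in knockout mice 2, 4, 5 and 7, without overlap. In footprints the cyclases stayed at 554 ± 12.02 CPM and 553 ± 17.1 CPM (SD, n = 3 each), while the phosphodiesterases were at 1364 ± 4.03 CPM and 1496 ± 9.07 CPM, 110% of control. The ratio was 0.414, 0.407 and 0.398 in control mice 1, 3 and 9 and 0.357, 0.371 and 0.382 in knockout mice 2, 4 and 10, lower in each knockout mouse. A ratio within a library does not depend on how libraries are scaled, but the sums are of counts, so genes with long or abundant messages weigh most. Adcy1, Adcy5 and Adcy2 gave 32.2%, 27.8% and 17.6% of the control RNA counts of cyclases, and Pde2a, Pde1a, Pde1b and Pde10a gave 29.0%, 14.7%, 13.2% and 12.9% of those of phosphodiesterases. No test was made on these sums.

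By substrate, the 3 Pde1 genes made up most of the footprint gain, at 568 ± 11.3 CPM in controls and 665 ± 11.9 CPM in knockout mice, 117% of control. The 8 cAMP-specific genes of the Pde4, Pde7 and Pde8 families were at 316 ± 7.88 CPM and 338 ± 8.94 CPM. The 5 other genes of dual substrate were at 458 ± 11.7 CPM and 477 ± 1.21 CPM. The 5 cGMP-specific genes, among which Pde9a was called, were at 22.1 ± 1.72 CPM and 16.0 ± 2.58 CPM, 72.4% of control. In RNA the Pde1 sum was 101% of control and the cGMP-specific sum 78.1%, to which Pde5a, not called, gave as much as Pde9a (means of 24.2 and 18.7 CPM for Pde5a, 23.4 and 18.4 CPM for Pde9a).

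The summed catalytic over the summed regulatory subunits, a ratio chosen after the values of the single genes were seen, was 0.387, 0.398 and 0.403 in the footprints of control mice 1, 3 and 9. In knockout mice 2, 4 and 10 it was 0.480, 0.469 and 0.468, 119% of control and without overlap. In RNA it was 0.703 to 0.843 in controls and 0.732 to 0.798 in knockout mice, which overlapped.

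**Figure D3:**
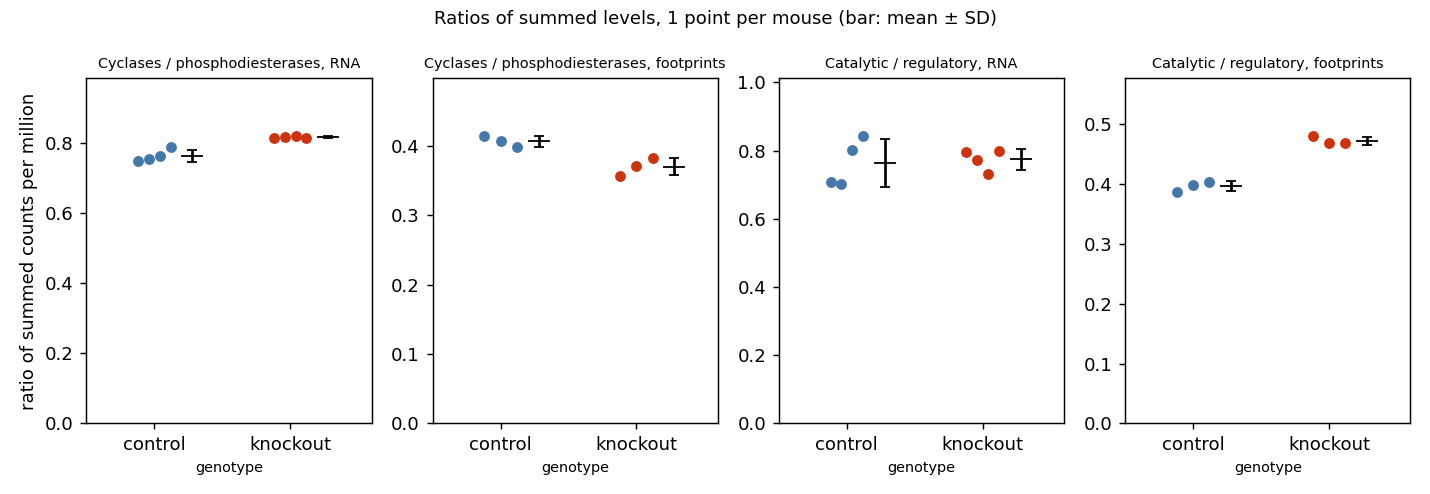
Ratio of summed CPM per mouse (points) with mean ± SD (bars), for cyclases over phosphodiesterases and for catalytic over regulatory kinase subunits, in RNA and in footprints, with axes from 0. The cyclase ratio lies higher in knockout mice in RNA (0.816 to 0.821, controls 0.751 to 0.790) and lower in footprints (0.357 to 0.382, controls 0.398 to 0.414). The kinase ratio separates the genotypes in footprints and overlaps in RNA.

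In control mice the cyclases and phosphodiesterases carried few footprints for their RNA. The median of footprint CPM over RNA CPM was 0.498 over 9 cyclases and 0.531 over 18 phosphodiesterases, beside 0.912 over all 12145 genes tested in TE, and 7 and 14 of them lay below that value. The lowest were Adcy1 at 0.145, the 1.19th percentile of all genes, and Pde3b at 0.189. Adcy5 was at 0.330, Pde2a at 0.494 and Pde1b at 1.22. The kinase subunits had a median of 1.03, with Prkar1a at 2.46 (96.4th percentile) and Prkar1b at 1.92 (91.8th percentile). A gene's length cancels in this ratio only where both assays count the same part of the gene. The RNA columns used here held 26.5% of the exon-column counts of Adcy1 and 94.4% of those of Adcy9, so the region counted differs between genes.

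**Figure D4:**
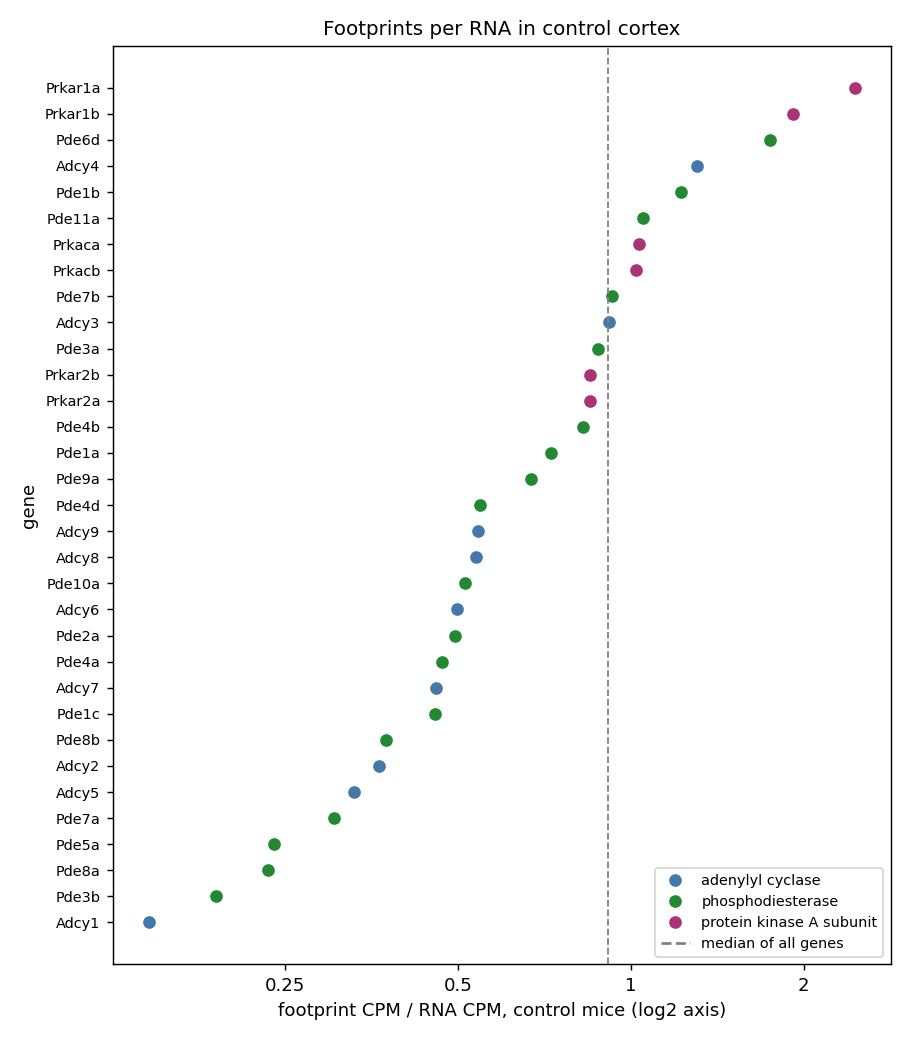
Mean footprint CPM over mean RNA CPM in control mice for the 33 tested genes (log2 axis), ordered and coloured by class, with the median of all genes (0.912) as a dashed line. Most cyclases and phosphodiesterases lie to its left, and Prkar1a and Prkar1b lie farthest to the right.

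Further genes of the pathway were taken from lists of their roles. Of 16 kinase A anchors and inhibitors, 9 fell and 0 rose in footprints (13.6% of all genes fell), and their footprints summed to 2666 to 2688 CPM in controls and 2222 to 2252 CPM in knockout mice. Lowest in adjusted p were Map2, the dendritic microtubule protein that binds type II subunits (log2 -0.36 ± 0.028), Akap9, the anchor at the Golgi and centrosome (-0.44 ± 0.046), and Akap5, the postsynaptic anchor (-0.40 ± 0.047), with edgeR adjusted p of 1.38e-19, 1.14e-13 and 1.23e-11. In RNA 1 of the 16, Akap5, was called (-0.25 ± 0.058, where 3.88% of all genes were lower), and 3 were called lower in TE (4.41% of all genes).

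Upstream, 5 of 10 G protein genes rose in footprints and 0 fell, where 11.9% of all genes rose. Striatum markers rose there too (6 of 11 called higher, 1 lower), and their part in the values of these genes was not tested. Gng7, the γ subunit that pairs with Gαolf in the striatum, rose by 0.80 ± 0.082 (edgeR adjusted p = 4.63e-14), Gnb1 by 0.20 ± 0.026 and the chaperone Ric8b by 0.28 ± 0.085. Gnb1 also rose in RNA (0.48 ± 0.063) and fell in TE (-0.29 ± 0.078), while Gng7 and Ric8b rose in TE (0.85 ± 0.14 and 0.35 ± 0.10). Of 16 tested receptors coupled to cyclases, 3 rose in footprints and 0 fell, a share not far from the 11.9% of all genes that rose: Grm3 (0.27 ± 0.039), the β1-adrenoceptor Adrb1 (0.46 ± 0.13) and the dopamine receptor Drd1a (0.26 ± 0.095). Grm2 rose in RNA (0.30 ± 0.059) and fell in TE (-0.39 ± 0.083). Downstream, of 11 tested effectors and CREB pathway genes, the coactivator Crebbp (-0.47 ± 0.042) and the phosphatase inhibitor Ppp1r1b (-0.14 ± 0.034) fell in footprints and Crem rose (0.33 ± 0.12), and Crebbp also fell in TE (-0.52 ± 0.079). These 3 of 11 are near the 25.5% of all genes called in footprints. Crtc1, a CREB coactivator, rose in RNA (0.34 ± 0.089) and fell in TE (-0.45 ± 0.12). On the cGMP side, 2 of 9 fell in footprints and 0 rose, where 13.6% of all genes fell: Nos1, the neuronal nitric oxide synthase (-0.31 ± 0.075), and Prkg1, a cGMP-dependent kinase (-0.48 ± 0.16), which also fell in RNA with Pde9a (-0.44 ± 0.094).

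The 5 calls in RNA were lost when the libraries that stood close together were summed. With knockout libraries 2, 4 and 7 summed to 1 and control libraries 1 and 3 summed to 1, none of the 5 was called, at adjusted p of 0.24 for Adcy9, 0.307 for Pde4a, 0.329 for Pde9a, 0.393 for Prkaca and 0.448 for Adcy1, while the differences kept their sign (0.28, 0.27, -0.33, 0.20 and 0.18). In that fit 36 genes of 13669 were called, against 1001 of 13507 in the main test. It also had fewer libraries, and whether that alone removed the calls was not tested. The 4 TE calls were also lost there, with adjusted p from 0.0737 for Pde1a to 0.108 for Pde6d. Without mouse 4, 0 members were called in RNA and 0 in TE, with RNA adjusted p from 0.0581 to 0.104. Leaving out mouse 1 or 3 left 2 RNA calls each, and leaving out mouse 2 or 7 left 1 each. TE calls fell to 0 without mouse 2, to 1 without mouse 1 or 9, and to 2 without mouse 3, 6 or 10. In footprints, the call of Adcy5 was lost without mouse 1, 2, 3, 4 or 9, that of Prkar1b without mouse 1, 2, 3 or 4, that of Adcy9 without mouse 1, 3, 4 or 10, and that of Pde10a without mouse 1, 2, 9 or 10. There, 6 of the 12 members (Adcy2, Pde1a, Pde1b, Pde6d, Pde9a and Prkaca) stayed called in each of 12 alternatives, among them each mouse left out in turn. None of these alternatives summed footprint libraries, although those of 1 genotype were about as close as knockout RNA libraries 2, 4 and 7.

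Other cell types were measured by their markers. In RNA, excitatory neuron markers summed to 2633 to 2971 CPM in controls and 3203 to 3539 CPM in knockout mice, and oligodendrocyte markers to 5315 to 5850 CPM and 4747 to 5059 CPM, both without overlap, beside the higher cyclase sum. The excitatory sum does not stand for each marker: 2 of 12 were called higher in RNA (3.53% of all genes), Camk2a by 0.75 ± 0.099, and the list's median was 0.094. Of oligodendrocyte markers 1 of 10 was called lower in RNA, where 3.88% of all genes were. Astrocyte markers had 2 of 10 called lower and inhibitory neuron markers 1 of 10 higher and 2 lower, with sums that overlapped. Thalamus markers (180 to 189 CPM, 158 to 176 CPM) and hypothalamus markers (43.0 to 78.2 CPM, 23.4 to 27.4 CPM) also summed to less in RNA without overlap, with 1 of 7 and 4 of 6 tested called lower (3.88% of all genes). In footprints, excitatory neuron markers were 4834 to 4933 CPM in control and 4552 to 4708 CPM in knockout footprints, with 2 of 12 called higher (11.9% of all genes), 3 lower (13.6%) and a median log2 difference of -0.0051. Inhibitory neuron markers were at 1901 to 1958 CPM and 2025 to 2066 CPM, with 4 of 10 called higher and 2 lower (median log2 difference 0.11). Oligodendrocyte markers were at 8990 to 9147 CPM and 8889 to 8924 CPM, and astrocyte markers at 6502 to 6583 CPM and 6459 to 6491 CPM. Both lists were split, with 4 of 10 called higher and 3 lower for oligodendrocytes (median log2 difference 0.036) and 2 of 10 higher and 3 lower for astrocytes (-0.062). Microglia and endothelium markers overlapped between the groups (738 to 769 CPM and 739 to 774 CPM, 312 to 324 CPM and 322 to 347 CPM). Thalamus markers were lower for 3 of 7 (239 to 253 CPM, 210 to 215 CPM) and choroid plexus markers for 2 of 4 (17.0 to 20.5 CPM, 7.35 to 13.4 CPM) in footprints, where 13.6% of all genes were lower. Their part in the differences of the cAMP genes was not tested.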

How the data were processed

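The authors deposited 1 table of whole-number counts per gene, with no normalization, for RNA (columns without a suffix and exon columns) and for footprints. Per the labels' protocols, ligation-free libraries were prepared from footprints of monosomes after RNase I digestion, and RNA was depleted of ribosomal RNA and made into strand-specific libraries. The submitters' processing notes list Bowtie2, STAR 2.5, featureCounts and Subread 1.4.6 with the builds mm9 and mm10. Which build, region and strand setting gave which column is not given in the sources used here.

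Genotype and mouse number came from the labels. RNA (8 libraries) and footprints (6) were tested separately with edgeR 4.0.16 in R 4.3.3 (quasi-likelihood F test, TMM, filterByExpr at a minimum count of 10, group means), and TE as the interaction of genotype and assay over 14 libraries. Tests were two-sided, and p-values were adjusted by Benjamini and Hochberg over all genes tested. Standard errors came from the F statistic. CPM used TMM-scaled library sizes, at which 3 counts, the limit that a count of 0 allows, come to 0.261 to 0.349 CPM in RNA and 0.509 to 0.712 CPM in footprints. These limits cover counting error only. On simulated counts with 200 changed genes, a log2 change of 1 was recovered for 100% of genes in each test, and a change of 0.5 for 98% in RNA (13518 genes), 76% in footprints (12151 genes) and 46% in TE (12134 genes). Apart from footprints of Pde6d and Pde9a and TE of Pde6d, called members differed by less than 0.5. Recovery of such smaller changes was not simulated.

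Members called in RNA or footprints have values given for each library of that assay, apart from control RNA of Adcy9. Other values are mostly given as ranges or differences. Of each pathway list at most 3 called genes are named, those with the lowest adjusted p over the 3 tests, and Drd1a and Crem were added, after their values were seen, to complete a count. Members and lists were chosen with earlier results of these data known. Mice 1 to 4 gave both assays, so their numbers pair the libraries, although deviations of RNA and footprints in the same mouse correlated at only -0.0124 to 0.0353. Promoter windows came from RefSeq (GRCm38.p6). No coding lengths were used, so where genes are summed or set side by side, the values are not scaled for length.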

Additional observations from a re-analysis of the deposited data

Results flagged for a closer look

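Of 70 groups of values checked for a library far from the others, where chance gives about 3.5, 1 was found. In RNA of knockout mice the ratio of summed cyclases to summed phosphodiesterases was 0.8215 in mouse 5 and 0.8163 to 0.817 in the other 3 mice, which lay very close together. The gap took up 0.869 of the group's range. The other 3 are the knockout RNA libraries of mice 2, 4 and 7, which stood close together by the chi-square measure. Mouse 5 lay on the far side of the controls, so the ratio of each knockout mouse remained above each control.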

How the results depend on the processing

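Across the alternatives, no member called in the main tests changed sign. Counts of called members that moved were as follows. In RNA (5 called), 0 were called with the closest libraries summed and with mice 5 to 8 only, and 11 with mice 1 to 4 only, and leaving out each mouse gave 0 to 6. In footprints (12), 1 fit over all 14 libraries gave 6 and DESeq2 gave 8, with 9 to 11 when a mouse was left out. In TE (4), no filter left 2 called, a block for the prefix of the library titles left 2 (and 4 in RNA, without Adcy1), and there were 0 with the closest libraries summed, and 0 to 5 when a mouse was left out. The mouse number as a replicate block, which pairs mice 1 to 4, gave 5 TE calls, with the 4 main ones kept, and changed no other member's call than that of Pde4b. Over all genes, calls moved from 1001 to 36 (libraries summed), 88 (mice 5 to 8) and 3273 (mice 1 to 4) in RNA, from 3102 to 1821 (DESeq2) and 1684 (14 libraries) in footprints, and from 949 to 579 (libraries summed), 1810 (replicate block) and 1809 (mice 1 to 4) in TE. When a mouse was left out, RNA gave 356 to 1763 calls over all genes, footprints 2558 to 2855 and TE 419 to 1289. The log2 difference in the RNA ratio of cyclases to phosphodiesterases was 0.096, and 0.13 in the exon columns. It was 0.091 with the closest libraries summed, and with Pde6d counted it was 0.098 in RNA and -0.15 in footprints (main -0.14). These last alternatives, and those for the ratio of catalytic to regulatory subunits, were chosen after the data were seen. Sums per kilobase of coding sequence were not run, as no coding lengths were used. The cause of these shifts was not tested, beyond the smaller number of libraries in some fits. Depth limits the members under about 10 CPM, whose footprint errors reach 0.33 on the log2 scale.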
